A study of Mus musculus with 4 samples.

Results

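The clustered protocadherins were examined in AML12 cells, a mouse hepatocyte line, grown in 2D or in 3D. They are adhesion proteins encoded side by side in an alpha, a beta and a gamma cluster on mouse chromosome 18. The members were the protein-coding genes of the deposited table on that chromosome whose symbol is a Pcdha, Pcdhb, Pcdhga, Pcdhgb or Pcdhgc name with a number, with Pcdhac included. The rule found 50 of the 31828 genes, namely 9 alpha, 21 beta and 20 gamma genes. It used names and positions and no measured value. A pair of alpha rows carry the symbol Pcdha11 (ENSMUSG00000007440 and ENSMUSG00000102206), and both were counted.

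The 2D cells grew as a layer in dishes and the 3D cells were embedded in Matrigel, a basement membrane extract. All cells received the same medium with insulin, transferrin, selenium and dexamethasone. Hydroxyurea, which blocks DNA replication and was used to synchronise the cells, was present in every culture at 1 mM, over 24 h for the 2D cells and over 36 h for the 3D cells, so that culture and treatment time cannot be told apart. Polyadenylated RNA was sequenced from 2 libraries per culture, 4 in all, and nothing in the labels says whether the replicates were separate cultures, so the p-values measure the spread between these libraries only.

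Vertebrate neurons use these genes as a surface barcode. Each alpha or gamma transcript joins 1 variable exon, which encodes the extracellular and transmembrane part, to constant exons that all genes of that cluster share and that encode the common end of the cytoplasmic tail. Beta genes have no constant exons. Each variable exon has its own promoter, and in neurons a few are chosen per cell with the help of CTCF, cohesin and DNA methylation. The proteins form dimers in the membrane that bind matching partners on the next cell. The c-type genes at the end of the alpha and gamma clusters are regulated apart from the others and are expressed in many neurons at once.

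The annotation showed how far the members share sequence. In GRCm38 the alpha members lie at 36939205 to 37187661 on chromosome 18, the beta members at 37294812 to 37524479 and the gamma members at 37661793 to 37841873, and all 50 are on the plus strand. The 9 alpha members have 3 exon blocks with 2860 bases in common, which made up between 38.0% and 54.9% of the exonic bases of each gene. The 20 gamma members have 3 exon blocks with 2116 bases in common. Bases shared with another gamma member made up 27.8% to 66.8% of each gene, with a median of 44.0%. Among the 21 beta members only Pcdhb21 and Pcdhb22 shared exonic bases, at 9.67% and 6.88% of their length. A read from a constant exon therefore cannot by itself be assigned to 1 alpha or gamma gene, and the sum over a cluster is given beside the single genes. Whether such a sum is independent of the way in which reads were split was not tested. No sequence of these genes is shown here.

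Levels are in TPM, transcript abundance per length, scaled to the same total in each library, so the sequencing depth is unknown. Genes with a mean of at least 1 TPM over the 4 libraries (14116 genes) were compared with limma on log2(TPM + 1), and a change was called at an adjusted p-value under 0.05. Of the 50 members 14 reached that mean, 30 reached 0.1 TPM and 5 reached 5 TPM. All 5 of the latter were gamma genes. Across all genes tested, 50.5% were called, 23.4% as higher and 27.1% as lower in 3D. Of the 14 members tested, 1 was called higher and 1 lower, and at an unadjusted p-value under 0.05 the same count of 2 was reached, against 57.6% of all genes tested. The median log2 fold change of the 14 members was 0.04, against -0.04 over all tested genes, and on this scale the changes of low genes are understated. Libraries of the cultures did not overlap for 6 of the 14 members and for 77.5% of all tested genes. Several gamma genes among the 14 passed the filter only through 1 library in which they were high. Their replicates lay far apart, which makes a call unlikely. The counts among the 14 members are therefore not read as stability between the cultures.

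The gamma cluster held most of the signal. Its summed level was 93.1 and 87.1 TPM in the 2D libraries and 73.7 and 61.4 TPM in the 3D libraries. Both 3D libraries lay below both 2D libraries, with a mean of 67.6 ± 8.66 TPM in 3D against 90.1 ± 4.22 TPM for the 2D pair (SD, n = 2 each). As a log2 value the ratio of the sums, 3D over 2D, was -0.42. The gamma genes made up 85.2% of the summed level of all members in 2D and 78.1% in 3D. In bulk RNA, fewer cells that express a gene and less RNA per cell cannot be told apart. No p-value is given for sums. The smallest p that exact two-sided permutation of these 4 libraries allows is 1 in 3, for a sum and for a single gene alike. The p-values of single genes come from limma, with a variance moderated over all tested genes.

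The summed beta level was 14.4 and 16.8 TPM in 2D and 19.3 and 18.4 TPM in 3D. The beta sums thus lay in the opposite order to the gamma sums, with both 3D libraries above both 2D libraries. The mean was 15.6 ± 1.65 TPM for the 2D libraries and 18.9 ± 0.592 TPM for the 3D libraries (SD, n = 2 each), which is a log2 ratio of 0.27. The 9 alpha genes together reached 0.0846 and 0.0910 TPM in 2D and 0.127 and 0.115 TPM in 3D. These alpha sums are near 0 in every library, and with a pseudocount of 1 their log2 ratio of 0.46 became 0.0434. Summed over all 50 members the level was 108 and 104 TPM in 2D and 93.1 and 80.0 TPM in 3D.

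**Figure D1:**
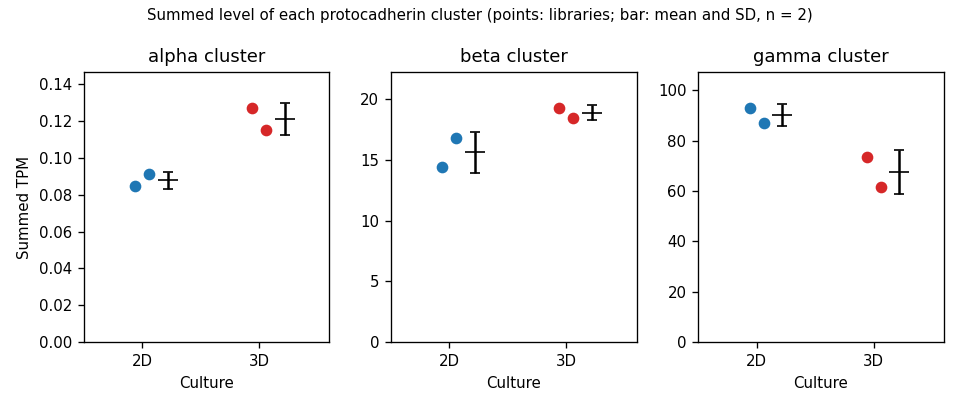
Summed TPM of the alpha, beta and gamma members in each library, by culture, with axes that start at 0 and differ between panels (points are libraries, bars the mean and SD, n = 2). The gamma sums of 73.7 and 61.4 TPM in 3D lie below those in 2D, the beta sums of 19.3 and 18.4 TPM lie above, and the alpha sums stay under 0.13 TPM.

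Within the gamma cluster the gene that carried the signal differed from library to library, also between replicates of 1 culture. How far the split of reads from the shared exons set these single-gene values was not tested. In 2D replicate 1 it was Pcdhgb2, a gamma B gene, with 56.5 TPM or 60.7% of the gamma sum. In 2D replicate 2 the leading genes were Pcdhgc3, a c-type gene, with 42.7 TPM (49.1%) and Pcdhga12, a gamma A gene, with 39.5 TPM (45.3%). In 3D replicate 1 they were Pcdhga9 with 33.6 TPM (45.6%) and Pcdhgc3 with 25.0 TPM (33.9%). In 3D replicate 2 the leading genes were Pcdhgb7 with 35.4 TPM (57.6%) and Pcdhgc5 with 11.4 TPM (18.6%). Between 2 and 4 genes at 5 TPM or more held 87.8% to 97.1% of the gamma sum of a library. Of the 20 gamma genes 8 reached 5 TPM in at least 1 library, and 6 of these did so in 1 library only. Pcdhgc3 was the only gamma gene at 5 TPM or more in all 4 libraries.

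**Figure D2:**
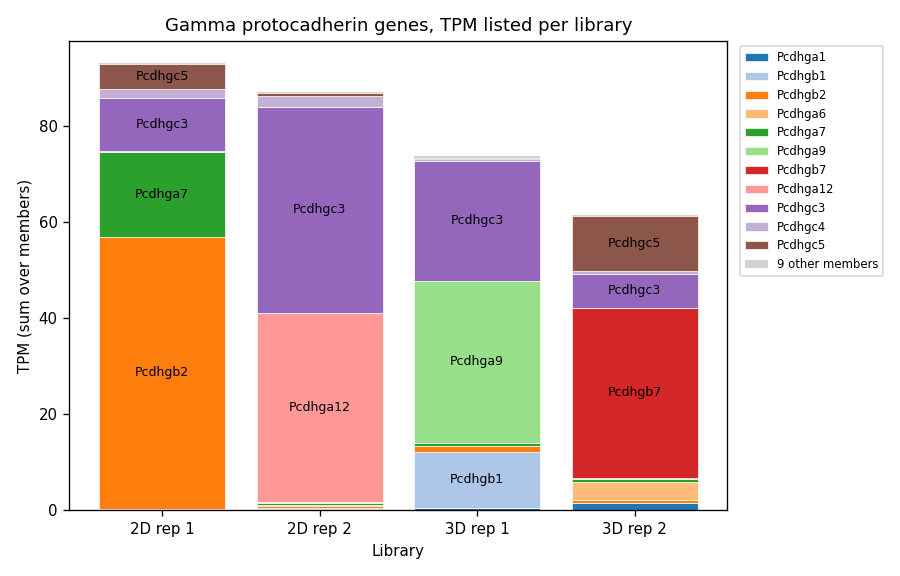
TPM of the gamma genes stacked per library, with names on genes at 5 TPM or more and genes under 1 TPM in every library summed in grey. The bar heights are 93.1 and 87.1 TPM in 2D and 73.7 and 61.4 TPM in 3D. Their coefficient of variation is 4.69% in 2D and 12.8% in 3D. The largest segment is a different gene in each bar.

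The values of the single genes show how far replicates lay apart. Pcdhgb2 was listed at 56.5 and 0.559 TPM in 2D and at 1.09 and 0.509 TPM in 3D. Its level was high in 1 library of 4, and the cultures overlapped. Pcdhga7 likewise was high in the same library alone, at 17.8 TPM in 2D replicate 1 and 0.467 TPM in 2D replicate 2, against 0.672 and 0.730 TPM in 3D. Pcdhga12 was at 0.0582 and 39.5 TPM in 2D and at 0.0358 TPM in 3D replicate 1, and it was listed at 0 in 3D replicate 2. The cultures did not overlap for Pcdhga12, although the 2D replicates differed more from each other than 2D replicate 1 did from the 3D libraries. In limma the log2 fold changes were -2.42 (SE 1.72, adjusted p 0.295) for Pcdhgb2, -1.63 (SE 1.21, adjusted p 0.315) for Pcdhga7 and -2.68 (SE 1.73, adjusted p 0.254) for Pcdhga12, and none was called. Without the low 2D library the fitted log2 fold changes of Pcdhgb2, Pcdhga7 and Pcdhga12 were -5.02, -3.46 and -5.31. Without the high 2D library they were 0.19, 0.21 and -0.056. With a lone 2D library the spread in 2D is not measured, so no call is read from these fits.

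The genes that were high in 3D followed the same pattern. Pcdhga9 was at 0.104 and 0.0961 TPM in 2D, at 33.6 TPM in 3D replicate 1 and at 0.216 TPM in 3D replicate 2. Pcdhgb1 reached 11.7 TPM in that library, was listed at 0 in 3D replicate 2, and stood at 0.0319 and 0.0279 TPM in 2D. Pcdhgb7 was at 0.0134 and 0.0445 TPM in 2D, at 0.0902 TPM in 3D replicate 1 and at 35.4 TPM in 3D replicate 2. Each of these genes was thus high in 1 of the 3D libraries. None was called by limma, with fitted log2 fold changes of 2.56 (SE 1.59, adjusted p 0.239) for Pcdhga9, 1.79 (SE 1.21, adjusted p 0.274) for Pcdhgb1 and 2.61 (SE 1.67, adjusted p 0.249) for Pcdhgb7. When the 3D library with the low value was left out, the log2 fold changes of Pcdhga9, Pcdhgb1 and Pcdhgb7 were 4.97, 3.63 and 5.15. When the 3D library with the high value was left out, they were 0.15, -0.043 and 0.084. A lone 3D library gives no spread in 3D, so no call is read from these fits.

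The c-type genes differed among themselves. Pcdhgc3, which is expressed widely and whose tail is known to bind Axin1, was listed at 11.1 and 42.7 TPM in 2D and at 25.0 and 7.07 TPM in 3D. The cultures overlapped (log2 fold change -0.67, SE 0.83, limma adjusted p 0.536). Pcdhgc5 was at 5.04 and 0.667 TPM in 2D and at 0.156 and 11.4 TPM in 3D, also with overlap (log2 fold change 0.26, SE 1.29, limma adjusted p 0.882). Pcdhgc4, which interneurons of the mouse need for survival, was at 1.84 and 2.25 TPM in 2D and at 0.375 and 0.466 TPM in 3D.

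Pcdhgc4 (ENSMUSG00000023036, 37815079 to 37841873) was the member called lower in 3D. Both 2D libraries lay above both 3D libraries, and the ratio of the means, 3D over 2D, was 0.206. In limma the difference on the log2 scale was -1.10 (SE 0.15, adjusted p 0.00435). It was called in every fit of all 4 libraries that tested it. With 1 library left out, its log2 fold change stayed between -1.195 and -1.001. A lone library gives no spread in its culture, so no call is read from those fits. Pcdhgc4 takes up reads in exons that all gamma genes share, as the other members do, so that its level depends on the same split. Within its span lie a pair of other transcripts. Gm38182, a processed transcript on the same strand, was at 0.983 and 1.35 TPM in 2D and at 0.324 and 0.736 TPM in 3D, without overlap. Gm29994, an antisense transcript, was at 0.152 and 0.301 TPM in 2D and at 0.153 and 0.299 TPM in 3D, with overlap. Upstream of that span, BC037039, antisense to the start of Pcdhgc3, was at 0.729 and 0.829 TPM in 2D and at 0.342 and 0.183 TPM in 3D. Each had a mean under 1 TPM and was not tested.

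The distance between replicates set the tested gamma genes apart from the beta genes in these values. Of the 9 gamma genes tested, 8 had replicates more than 1 apart on the log2(TPM + 1) scale in at least 1 culture, against 1.35% of all tested genes and 0 of the 5 beta genes tested. The median distance was 1.86 in 2D and 1.69 in 3D for the gamma genes tested. For the beta genes tested it was 0.17 in 2D and 0.11 in 3D, and for all tested genes it was 0.10 and 0.08. The exception among the gamma genes was Pcdhgc4, with distances of 0.19 and 0.09. Several gamma genes passed the filter of 1 TPM only through the library in which they were high, so this count describes those that passed and not the cluster. The coefficient of variation of the gamma sum was 4.69% in 2D and 12.8% in 3D, whereas that of Pcdhgc3 alone was 83.2% and 79.1%.

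Counted another way, genes were taken that had at least 5 TPM in 1 library of a culture and at least 10 times the level of its replicate. In 2D there were 13 such genes (0.118% of the 11006 genes that reached 5 TPM), and 3 of them were gamma protocadherins, out of 5 gamma genes that reached 5 TPM. In 3D there were 21 (0.191% of 10970), of which 4 were gamma protocadherins out of 5. Of the beta genes none reached 5 TPM in 2D and only Pcdhb16 did in 3D, so this count says nothing about them. The Ugt1a genes, which also join variable first exons to shared last exons, had 0 of 1 in 2D and 1 of 6 in 3D. The latter gene was Ugt1a2, at 12.0 TPM in 3D replicate 1 and listed at 0 in 3D replicate 2. The difference between the families was not tested.

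**Figure D3:**
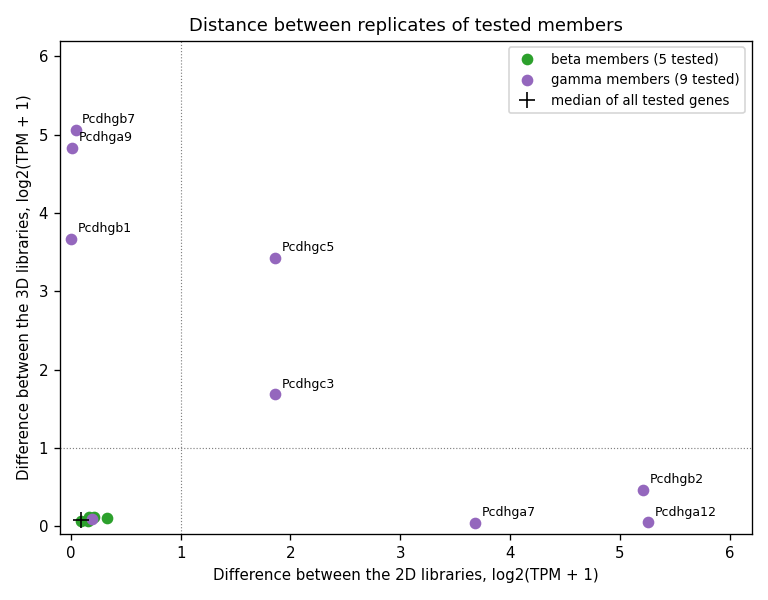
Distance between the 2D libraries (horizontal axis) and between the 3D libraries (vertical axis) on the log2(TPM + 1) scale for the 14 members tested, with names where a distance is over 1 and a cross at the median of all tested genes. The beta genes and Pcdhgc4 lie near the cross, and the other 8 gamma genes lie beyond 1 on at least 1 axis.

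The remaining 11 gamma genes had means between 0.0068 and 0.985 TPM. Pcdhga1 stood at 0.303 and 0.355 TPM in 2D and at 0.454 and 1.61 TPM in 3D. Pcdhga6 was at 0.0133 and 0.118 TPM in 2D and at 0.125 and 3.68 TPM in 3D. The cultures did not overlap for 4 of these 11 genes, 3 higher and 1 lower in 3D, against 35.5% of all genes with a mean under 1 TPM. Summed by type, the 11 gamma A genes had 18.5 and 40.7 TPM in 2D and 35.2 and 6.41 TPM in 3D, and the 6 gamma B genes had 56.7 and 0.702 TPM in 2D and 12.9 and 36.0 TPM in 3D. The 3 gamma C genes had 17.95 and 45.6 TPM in 2D and 25.5 and 19.0 TPM in 3D. For each type the cultures overlapped, and only the sum over the 3 types did not.

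The beta genes that were tested gave steadier values than most of the gamma genes tested. Beta genes under 1 TPM could lie further apart, as Pcdhb12 did in 3D. For the beta sum in 2D the coefficient of variation was 10.6%, above the 4.69% of the gamma sum. Beta genes lack the constant tail and share almost no exonic bases with each other. Of the 21, 5 were tested, and 1 was called higher and 0 lower in 3D by limma, against 23.4% called higher and 27.1% called lower of all genes tested. At an unadjusted p-value under 0.05 the count was also 1. The highest means over the 4 libraries lay next to each other in the cluster, at Pcdhb15, Pcdhb16 and Pcdhb17, with lower means at Pcdhb5 and Pcdhb7.

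Pcdhb16 (ENSMUSG00000047910, 37477814 to 37483038) was at 3.35 and 3.86 TPM in 2D and at 5.57 and 5.23 TPM in 3D. Both 3D libraries lay above both 2D libraries, and the ratio of the means was 1.498. In limma the difference on the log2 scale was 0.48 (SE 0.11, adjusted p 0.0217). The call was lost with no filter on low values (adjusted p 0.0506) and when 2D replicate 1, 3D replicate 1 or 3D replicate 2 was left out (adjusted p 0.0737, 0.103 and 0.0733), with log2 fold changes of 0.40 to 0.56 over the fits that left out 1 library.

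Its neighbour Pcdhb17 was at 3.17 and 3.69 TPM in 2D and at 3.18 and 2.84 TPM in 3D. The cultures overlapped, and limma made no call (log2 fold change -0.14, SE 0.12, adjusted p 0.373). Pcdhb15 was at 1.28 and 1.44 TPM in 2D and at 1.71 and 1.86 TPM in 3D, without overlap but below the threshold (log2 fold change 0.24, SE 0.12, limma adjusted p 0.173). Pcdhb5 and Pcdhb7 overlapped between the cultures, with log2 fold changes of 0.04 (SE 0.17) and 0.04 (SE 0.15). In the order of their means, Pcdhb16 and Pcdhb17 stood above Pcdhb15, Pcdhb5 and Pcdhb7, and between the last pair the library values overlapped in both cultures. In 2D Pcdhb5, at 0.981 and 1.49 TPM, also overlapped with Pcdhb15.

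The other 16 beta genes had means of 0.0344 to 0.798 TPM. Of these, 8 did not overlap between the cultures, 7 of them higher and 1 lower in 3D, against 35.5% of all genes with a mean under 1 TPM. Pcdhb9 was at 0.201 and 0.350 TPM in 2D and at 0.808 and 0.789 TPM in 3D, a ratio of the means of 2.90. With the filter lowered to a mean of 0.1 TPM, Pcdhb9 was called higher (log2 fold change 0.50, SE 0.12, limma adjusted p 0.0324), as were 15.5% of all genes tested then. With no filter its adjusted p-value was 0.0582. Pcdhb12 was at 0.207 and 0.151 TPM in 2D and at 0.769 and 0.297 TPM in 3D, and was not called in either fit.

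**Figure D4:**
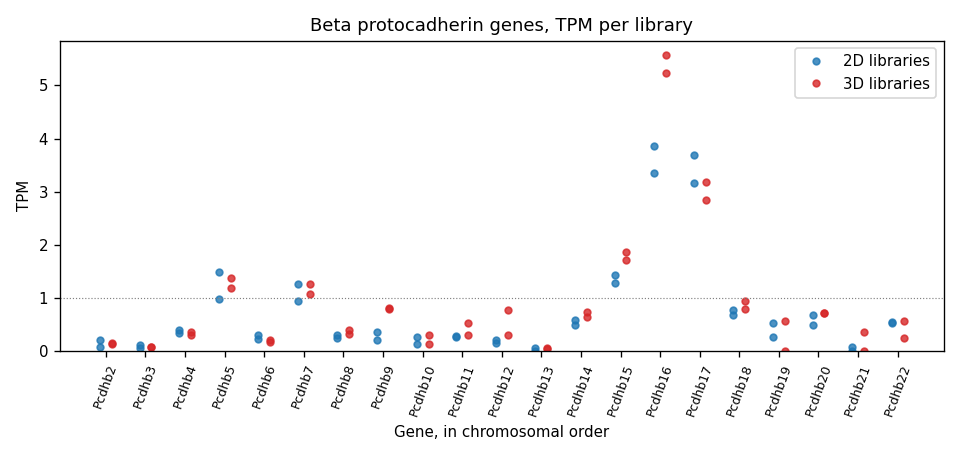
TPM of the 21 beta genes in chromosomal order, with 2D libraries in blue, 3D libraries in red and a dotted line at 1 TPM. Pcdhb16 and Pcdhb17 stand highest, and Pcdhb16 alone among the 5 genes tested was called, at 5.57 and 5.23 TPM in 3D against 3.35 and 3.86 TPM in 2D.

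The alpha genes were close to absent in these values. The highest single value of an alpha gene was 0.106 TPM, for Pcdha9 in 3D replicate 1, and the same gene was listed at 0 in 3D replicate 2. Each of the 9 alpha genes was listed at 0 in at least 1 library. Pcdhac1, the c-type gene of the table, was listed at 0 in 3 libraries and at 0.0232 TPM in 3D replicate 2. None of the 9 genes was tested, and no direction is read from them.

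Genes outside the clusters that are known to act on them were compared next. Of 20 chromatin regulators 18 were tested, and 2 were higher and 6 lower in 3D, while 50.5% of all genes tested were called. CTCF folds the alpha and gamma promoters towards their enhancers together with cohesin. Ctcf itself was at 35.5 and 36.5 TPM in 2D and at 44.0 and 43.0 TPM in 3D (log2 fold change 0.27, SE 0.05, limma adjusted p 0.0137). The cohesin subunit Rad21 fell by 0.15 in log2 terms (adjusted p 0.0256 in limma), while the subunit Smc3 was not past the threshold at 0.14 (limma adjusted p 0.0897). Of the other cohesin genes, the subunits Smc1a and Stag1 fell by 0.56 and 0.35, the loader Nipbl fell by 0.41 and the regulator Pds5b fell by 0.25 (adjusted p 0.00146, 0.00941, 0.00444 and 0.0397 in limma). Stag2, Wapl and Pds5a were not called, at 0.09, -0.20 and -0.11 (adjusted p 0.189, 0.135 and 0.639 in limma). The maintenance DNA methyltransferase Dnmt1 fell by 0.52 and Tet3, which oxidises methylcytosine, rose by 0.86 (adjusted p 0.00446 and 0.00331 in limma). Trim28, a corepressor, was not called (log2 fold change -0.03, adjusted p 0.541 in limma). The median over the 18 genes was -0.05, against -0.04 over all tested genes.

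Proteins that the cytoplasmic tails bind or that cleave them were also measured. Of 16 such genes 15 were tested, and 4 were higher and 5 lower in 3D (50.5% of all genes tested were called), with a median log2 fold change of 0.02. Together the regulators and partners had 17 calls, and 10 without 3D replicate 1 and 11 without 3D replicate 2. Ctnnb1, which encodes beta-catenin, was at 226 and 339 TPM in 2D and at 376 and 583 TPM in 3D, and was not past the threshold (log2 fold change 0.76, limma adjusted p 0.0840). Nckap1, a subunit of the WAVE complex that the alpha tail recruits, fell by 0.16 in log2 terms (adjusted p 0.0483 in limma). Ptk2b, a kinase that alpha and gamma tails inhibit, fell by 0.18 (limma adjusted p 0.0406).

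Cadherins outside the clusters ranged from near 0 to levels above the sum of the clusters. Pcdh1, a protocadherin gene downstream of the gamma cluster, was at 179 and 205 TPM in 2D and at 203 and 190 TPM in 3D, so that this gene alone exceeded the sum of all 50 clustered members in each library. It was not called (log2 fold change 0.03, limma adjusted p 0.755). Among 12 non-clustered protocadherins 8 were in the table and 2 tested, and Pcdh17 fell from 4.55 and 4.71 to 3.09 and 2.61 TPM (log2 fold change -0.55, limma adjusted p 0.0161). Pcdh12 had a mean of 0.154 TPM. Of 34 classical and other cadherins 16 were tested, and 7 were higher and 7 lower in 3D, beside 50.5% called of all genes tested. Fat1, a giant cadherin, fell by 0.52 and Cdh16 fell by 0.35 in log2 terms, and Cdh6 rose by 0.92 (limma adjusted p 0.0146, 0.00766 and 0.000407). Cdh1, which encodes E-cadherin, rose by 2.09, and Cdh2, which encodes N-cadherin, fell by 1.25 (limma adjusted p 0.000215 and 0.000407).

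The genes that flank the clusters within 500 kb did not share a direction. Genes whose symbol is Gm with a number were left out of this list. Of 29 protein-coding neighbours 27 were tested, with 8 higher and 6 lower in 3D and 13 not past the threshold, beside 50.5% called of all genes tested, and a median log2 fold change of 0.12. Without 3D replicate 2 the calls numbered 8 in place of 14. Taf7, a TFIID subunit encoded between the beta and gamma clusters, was at 2.73 and 2.84 TPM in 2D and at 3.94 and 3.71 TPM in 3D (log2 fold change 0.35, SE 0.10, limma adjusted p 0.0452). Next to the alpha cluster Zmat2 fell by 0.33 (limma adjusted p 0.00470), and next to the gamma cluster Diaph1 was not called (log2 fold change -0.12, limma adjusted p 0.193). Further away, Cd14, a lipopolysaccharide coreceptor, rose by 1.25 and Gnpda1 rose by 0.99 (limma adjusted p 0.000215 and 0.000664), while Hbegf, an EGF receptor ligand, fell by 0.70 (limma adjusted p 0.000807).

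**Figure D5:**
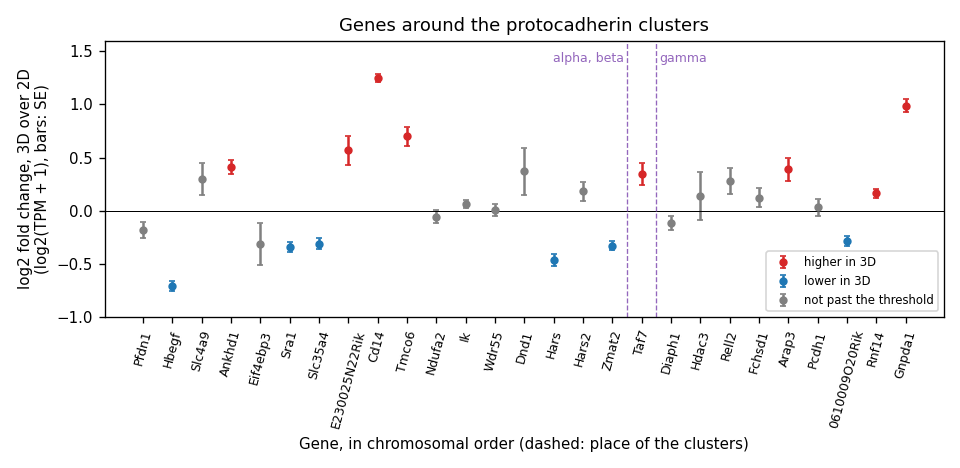
Log2 fold change, 3D over 2D, on the log2(TPM + 1) scale with its SE for the 27 tested genes within 500 kb of the clusters, in chromosomal order, with dashed lines where the clusters lie. Genes called higher (8) and lower (6) are interspersed on both sides of the clusters.

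Markers of cells other than hepatocytes were checked because neurons and mesenchymal cells express these clusters. Of 10 neuronal markers 9 were in the table and 3 reached 1 TPM, and their summed level lay between 8.60 and 9.64 TPM in every library. Snap25 was at 2.25 and 2.40 TPM in 2D and at 3.57 and 3.39 TPM in 3D and was called (log2 fold change 0.43, limma adjusted p 0.0278), although not when any 1 library was left out. Map2 and Rbfox3 were not called, and Stmn2 was listed at 0 in 3 libraries. Of 10 mesenchymal markers 9 were in the table, with summed levels of 749 and 703 TPM in 2D and 304 and 293 TPM in 3D. That sum was almost all Vim, which fell from 714 and 666 TPM to 284 and 274 TPM (adjusted p 0.000282 in limma), and Des fell by 0.91 (limma adjusted p 0.00122). The other 7 markers of the list in the table (Pdgfrb, Col1a1, Thy1, Acta2, Pdgfra, Lum and Col3a1) were each under 1 TPM in every library. The highest was Pdgfrb, at 0.765 and 0.709 TPM in 2D and 0.571 and 0.735 TPM in 3D, and Acta2 was listed at 0 and 0.0482 TPM in 2D and at 0.279 and 0.140 TPM in 3D. Their part in the lower gamma sum in 3D was not tested. Of 10 hepatocyte markers 9 reached 1 TPM and Serpina1a did not. Among the 9, 6 were called higher and 3 lower in 3D, beside 50.5% called of all genes tested. Alb was at 0.819 and 1.20 TPM in 2D and at 12.7 and 10.0 TPM in 3D, and Krt18 led the list at 6286 and 6128 TPM in 2D and 3275 and 3320 TPM in 3D.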

How the data were processed

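RNA-seq libraries from 2D- and 3D-cultured AML12 cells, 2 each, were prepared by the authors with a stranded mRNA kit. Reads were trimmed with cutadapt 1.8.3 and Trimmomatic 0.36, mapped in stranded mode by HISAT2 2.0.5 to GRCm38 and quantified with StringTie 1.3.4, per the study's methods and processing notes. The authors deposited TPM for each library separately. The log2 fold change and its p-value from the authors' DESeq2 comparison were deposited too and stayed unused. StringTie splits reads of shared exons among overlapping transcripts, which bears on alpha and gamma genes. TPM keep no depth, so no interval or detection limit was computed, and a value of 0 can be a failed estimate.

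Genes with a mean of at least 1 TPM entered limma 3.58.1 (R 4.3.3) as log2(TPM + 1), with a variance trend and robust moderation. Culture was the single factor, tests were two-sided, and p-values were adjusted by Benjamini-Hochberg over 14116 genes. Exon structure was taken from GENCODE release M21, where all 50 members have the same position. Figures were drawn with matplotlib 3.10.9. The fit was tested on simulated data beforehand. The same-numbered libraries did not deviate together (correlation -0.0549 over the 14116 genes), and they were not treated as pairs.

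The members and lists were chosen with earlier results of these data known. Named genes are members with a mean of at least 1 TPM, the highest member of each type, up to 3 genes with the highest mean of each list, and flanking genes. Pcdhb9, Pcdhb12, Pcdhga1, Pcdhga6, Gm38182, Gm29994, BC037039, Ugt1a2, Ctcf, Smc1a, Stag1, Nipbl, Pds5b, Stag2, Wapl, Pds5a, Dnmt1, Tet3, Cdh1, Cdh2, Stmn2, Alb, Serpina1a and the mesenchymal markers under 1 TPM fall outside this rule and were named after their values were seen. The alternatives tried were a pseudocount of 0.1 or 5, omission of the filter, minimum means of 0.1 and 5 TPM, centring, quantile normalization, rescaling, a replicate block, a constant prior variance, summed clusters and each library left out.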

Additional observations from a re-analysis of the deposited data

How the results depend on the processing

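Of the 14 members tested, 1 was called higher in 3D (Pcdhb16) and 1 lower (Pcdhgc4). With no filter on low values 0 were higher, with a minimum mean of 0.1 TPM 2 were, and with a minimum of 5 TPM 0 were called in either direction. With the alpha and gamma genes each summed to 1 row 0 of the remaining members were lower, since Pcdhgc4 is then no row of its own. Leaving out 1 library gave 0 to 2 higher members (0 without 2D replicate 1 and 2 without 3D replicate 2) and 1 to 3 lower members (2 without 2D replicate 1 and 3 without 2D replicate 2). An unadjusted threshold, added after the data were seen, left both counts at 1. With the replicate block 1 member was higher and 1 lower, and no call of a member changed. Without a library, gamma genes that were high in 1 library took large fitted values. The log2 fold change of Pcdhgb2 ranged from -5.02 to 0.19, of Pcdhga7 from -3.46 to 0.21, of Pcdhgb1 from -0.043 to 3.63, of Pcdhgc3 from -1.59 to 0.26 and of Pcdhgc5 from -1.46 to 1.97, and of the beta genes Pcdhb5 from -0.13 to 0.20 and Pcdhb7 from -0.062 to 0.15. Pcdhga12 ranged from -5.31 to -0.056, Pcdhga9 from 0.15 to 4.97 and Pcdhgb7 from 0.084 to 5.15. In each fit without 1 library the lone library left in a culture was assumed to vary like the others. No call that a gamma gene gained in such a fit is read as a change. With a pseudocount of 0.1 Pcdhgc5 was at -0.21 in place of 0.26, and the cause was not tested.

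The log2 ratio of the gamma sums stayed between -0.48 and -0.29 under the other alternatives and between -0.55 and -0.29 without 1 library, and that of the beta sums between 0.17 and 0.30 and between 0.17 and 0.39. For all members the ratio without 1 library ranged from -0.40 to -0.18. That of the alpha sums was 0.0434 with a pseudocount of 1 and 0.17 without the highest member, and 0.39 to 0.53 without 1 library. Of the 50 members 30 reached a mean of 0.1 TPM and 5 reached 5 TPM, against 14 at 1 TPM.

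Of the other lists, 14 flanking genes were called, and 8 to 13 without 1 library (8 without 3D replicate 2). Of regulators and partners 17 were called, and 10 to 15 without 1 library (10 and 11 without 3D replicate 1 and 2). Neuronal markers had 1 call, Snap25. With no filter there were 2, Gap43 lower and Syt1 higher (limma adjusted p 0.0176 and 0.0306). Snap25 was not called in that fit (limma adjusted p 0.0593). The count was 3 with a minimum of 0.1 TPM, 0 with a minimum of 5 TPM and 0 with the replicate block. Depth is unknown, and levels under 1 TPM carry no measure of counting error.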

Other observations

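The region of the clusters holds further transcripts, and those listed here had means under 1 TPM and were not tested. Gm10544, a processed transcript on the minus strand of the alpha cluster, was listed at 0 and 0.129 TPM in 2D and at 0.0826 and 0.0354 TPM in 3D. Slc25a2, counted above among the flanking genes and encoded between the beta and gamma clusters, was at 0.184 and 0.107 TPM in 2D and at 0.133 and 0.197 TPM in 3D. Gm8242, a pseudogene between the beta and gamma clusters, was at 0.927 and 0.0011 TPM in 2D and at 0.178 and 0.521 TPM in 3D. Pcdhgb8, annotated as a polymorphic pseudogene and therefore no member, was at most 0.0135 TPM in any library.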
